A study of Rattus norvegicus with 12 samples.

Results

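Long noncoding RNAs (lncRNAs) that are spliced across very long stretches of the genome were examined in fetal rat spinal cord of the lumbosacral level. The transcripts were the rows of the deposited lncRNA table with an identifier of the NONCODE catalogue, a genomic span of 50 kb or more and a span greater than the transcript's own length. The rule took 596 of 22701 rows (2.63%), or 5.50% of the 10828 NONCODE rows whose span exceeded their length. The ARM group held 3 libraries from Wistar fetuses on embryonic day 17 with anorectal malformations induced by ETU (ethylenethiourea, a teratogen given to the dam). The normal group held 3 libraries from normal Wistar fetuses of the same day and tissue. No group exposed to ETU without a malformation is named, so the exposure and the malformation cannot be told apart. The libraries were made from bulk tissue, in which fewer cells of a type and less RNA per cell cannot be told apart. The labels do not say from how many fetuses or litters a library came, so the p-values below measure only the spread between these samples, which may be technical.

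A spliced transcript is cut out of a longer primary transcript: its exons are joined and the introns between them are removed. When a short transcript spans a region many times its length, nearly all of that span is intron. Genes with long introns are frequent among those used by neurons, including cell adhesion, synaptic and RNA-binding genes, and many catalogued noncoding transcripts of brain and spinal cord share exons or introns with them. The table names transcripts in the AceView style, in which a gene name is followed by a letter for the transcript model (A2bp1.b), and regions with no known gene carry invented words (blutu.a). Such a name says where a transcript lies, not what it does. Where strand was not used in counting, which the sources used here do not state, reads of the host gene's own RNA and of the noncoding transcript cannot be told apart.

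The 596 transcripts had a median length of 596 bases (214 to 8497) and a median span of 82693 bases (50018 to 1108227). The median ratio of span to length was 150 and ran from 11.8 to 2062. The other spliced NONCODE rows had nearly the same median length, 621 bases, but a median span of 3900 bases. By span, 380 transcripts covered 50 to 100 kb, 137 covered 100 to 200 kb, 68 covered 200 to 500 kb and 11 covered 500 kb or more. They lay in 513 separate loci, and 67 of these loci held more than 1 transcript, with 7 at most. Chromosome 17 held them at the highest share, 31 of 701 rows (4.42%), and chromosome 10 at the lowest, 23 of 1753 rows (1.31%). The limit itself fell between close neighbours. Slc38a6.c, named after an amino acid transporter gene, was just inside it with a span of 50018 bases and a mean of 1.55 FPKM, and tershee.b with 50141 bases and 0.215 FPKM. Rims2.c, named after a synaptic vesicle release gene, was just outside with 49970 bases and 1.77 FPKM, and Tmem16c.a with 49911 bases and 0.0749 FPKM.

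The word spliced was not borne out by every name. Of the 596 names, 26 ended in "-unspliced", although each of these rows had a span greater than its length. Their median of the mean FPKM was 0.0926, against 0.848 for the other 570, and 4 of the 26 had counts high enough to be tested. Among the 11 transcripts spanning 500 kb or more, 5 carried such a name. The exon structure of the rows was not used here.

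The names of 311 transcripts (52.2%) matched 273 RefSeq genes, 258 by the current symbol and 53 by a synonym, and all 311 matched coding genes. The share was 56.9% in the other spliced NONCODE rows. Another 214 names had no match, and 71 rows had no name beyond their identifier. Several genes lent their name to more than 1 transcript. Zfand6andFah, a name joining the zinc finger gene Zfand6 to its neighbour Fah, which encodes an enzyme of tyrosine breakdown, stood on 7 rows in 1 locus on chromosome 1, with mean levels of 0.0365 to 31.2 FPKM. Tmem161b, which encodes a membrane protein, stood on 4 rows with 0.111 to 1.87 FPKM. Galnt13, which encodes an enzyme that starts O-glycan chains on proteins, stood on 3 rows with 0.301 to 6.25 FPKM. Gng12, a G protein subunit gene, and the invented names forsa and jorsa also stood on 3 rows each, with at most 0.303, 0.432 and 0.156 FPKM.

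The transcripts' own sequences were not used here. The promoters of their host genes, which mark the hosts' starts and not the places of the transcripts, are described instead. RefSeq promoters of the GRCr8 build, 250 bases before to 50 bases after each start, were found for 223 of the 273 host genes, 272 promoters in all. CG dinucleotides, which are rare in most of the genome and dense in CpG islands at many promoters, had a median of 18 in these 300 bases, and 70.2% of the promoters held 10 or more. Promoters of genes that hosted only other spliced NONCODE rows had a median of 21 and held 10 or more in 81.5%, and all 33469 promoters of the table had a median of 7 and held 10 or more in 41.5%. The sequences of 3 hosts of abundant transcripts are shown as examples of low and high CG counts. They are the neuronal splicing regulator Rbfox1, whose older symbol is A2bp1, the transcription factor Nfib and the attractin-like membrane protein Atrnl1. Each is written 5′ to 3′ with CG dinucleotides in capitals.
Rbfox1, chr10:8999342-8999641, minus strand: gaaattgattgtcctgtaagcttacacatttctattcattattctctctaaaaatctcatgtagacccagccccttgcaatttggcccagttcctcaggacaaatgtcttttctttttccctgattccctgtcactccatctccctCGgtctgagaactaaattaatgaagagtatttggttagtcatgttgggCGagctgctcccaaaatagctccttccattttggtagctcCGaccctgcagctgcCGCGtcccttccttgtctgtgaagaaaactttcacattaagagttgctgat
Nfib, chr5:102019896-102020195, minus strand: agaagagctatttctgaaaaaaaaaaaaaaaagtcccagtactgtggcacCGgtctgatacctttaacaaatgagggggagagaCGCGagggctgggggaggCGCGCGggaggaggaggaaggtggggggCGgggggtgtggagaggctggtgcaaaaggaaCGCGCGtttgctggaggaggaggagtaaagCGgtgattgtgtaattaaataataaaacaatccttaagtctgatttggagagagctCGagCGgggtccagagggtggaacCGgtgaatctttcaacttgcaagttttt
Atrnl1, chr1:266675801-266676100, plus strand, the first of its 2 promoters in the table: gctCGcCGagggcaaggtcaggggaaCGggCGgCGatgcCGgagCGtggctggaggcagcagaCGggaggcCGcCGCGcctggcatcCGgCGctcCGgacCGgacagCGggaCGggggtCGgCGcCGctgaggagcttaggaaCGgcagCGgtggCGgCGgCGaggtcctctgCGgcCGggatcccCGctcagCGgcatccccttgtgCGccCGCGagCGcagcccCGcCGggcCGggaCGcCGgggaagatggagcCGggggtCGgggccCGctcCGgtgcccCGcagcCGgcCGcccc
Atrnl1, chr1:266696432-266696731, plus strand, the second promoter: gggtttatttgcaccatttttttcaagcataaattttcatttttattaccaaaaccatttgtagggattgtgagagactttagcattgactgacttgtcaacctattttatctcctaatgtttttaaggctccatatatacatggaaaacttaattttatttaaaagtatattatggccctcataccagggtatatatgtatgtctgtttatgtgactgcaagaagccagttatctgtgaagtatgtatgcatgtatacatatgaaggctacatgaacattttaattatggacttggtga
The Rbfox1 window held 5 CG dinucleotides, fewer than the median host, the Nfib window 14, the first Atrnl1 window 45 and the second 0. Of all promoters in the table, 62.0% held as many as Rbfox1 or more, 33.5% as many as Nfib or more, and 1.66% as many as the first Atrnl1 window or more. These GRCr8 coordinates are not on the same footing as the deposited ones given for transcripts below, for which the sources name no fitting build.

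Levels are compared between transcripts in the deposited FPKM, a read count divided by the transcript's length and a library total. Most long-span transcripts were scarce, and a few were abundant. Of the 596, 480 had a count in all 6 libraries, 192 reached 1 FPKM in all 6, 328 had a mean under 1 FPKM, and 46 had a mean of 10 FPKM or more. Their median was 0.692, 0.674 and 0.901 FPKM in ARM replicates 1 to 3, and 0.740, 0.702 and 0.645 FPKM in normal replicates 1 to 3. The groups overlapped, and ARM replicate 3 was the highest. In that library the lncRNA rows made up 17.4% of the total that the FPKM values imply, against 14.6% to 15.9% in the other 5. A larger part of that total raises FPKM without raising a row's share of the lncRNA counts. How much of the higher median goes with it, if any, was not tested.

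Within every library the median long-span transcript lay below the median shorter one. The long-span median averaged 0.726 ± 0.091 FPKM (SD, n = 6 libraries), against 0.856 ± 0.051 FPKM for the other spliced NONCODE rows and 1.49 ± 0.133 FPKM for NONCODE rows with span equal to length. The first difference was -0.130 ± 0.050 FPKM and the second -0.767 ± 0.068 FPKM, both with the same sign in 6 of 6 libraries. The exact two-sided permutation test over the paired libraries gave p = 0.03125 for each, the smallest it can give with 6 libraries. The share of transcripts at 1 FPKM or more gave the same ordering, 43.9% ± 2.46 against 46.7% ± 1.20 and 58.0% ± 1.51, again with p = 0.03125 in the exact permutation test, and adjustment over the 4 comparisons left that value as it was. The upper end ran the other way against the other spliced rows. The 90th percentile was 7.71, 7.67 and 8.85 FPKM for long-span transcripts in ARM replicates, against 6.91, 7.03 and 7.94 FPKM for the other spliced rows. In normal replicates it was 7.44, 8.15 and 7.77 FPKM, against 7.32, 7.52 and 7.18 FPKM. It was thus higher in all 6 libraries, a difference that was not tested. The libraries share one set of transcripts, so the tests speak for these libraries and not for other sets of transcripts. Level did not follow span in one direction. The median of the mean FPKM was 0.731 at 50 to 100 kb, 1.10 at 100 to 200 kb, 0.588 at 200 to 500 kb and 0.0788 in the 11 transcripts of 500 kb or more.

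**Figure D1:**
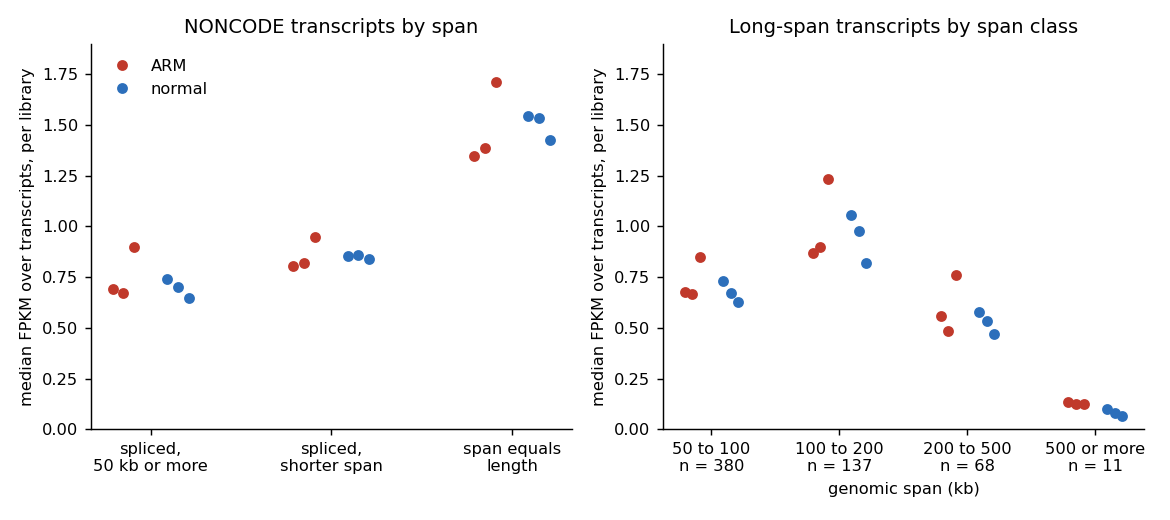
The vertical axes give the median deposited FPKM over transcripts in each library, for 3 classes of NONCODE transcripts (left) and for the long-span transcripts by genomic span in kb (right); each dot is 1 library, ARM in red and normal in blue. The median of the long-span transcripts lies lowest of the 3 classes, and among them the class of 100 to 200 kb lies highest and the 11 transcripts of 500 kb or more lie lowest.

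The most abundant of them all was NONRATT005199.2, an 809-base transcript with no gene name that spans 195426 bases of chromosome 10 (8491555 to 8686980). It had 71.3, 68.5 and 83.5 FPKM in ARM replicates 1 to 3, against 72.8, 71.1 and 73.4 FPKM in normal replicates 1 to 3, and ranked 111 in the whole table. The groups overlapped. Stau2.a followed at a mean of 49.2 FPKM. It is named after Stau2, which encodes a double-stranded RNA-binding protein that carries mRNAs into dendrites, and spans 97758 bases of chromosome 5 (2400159 to 2497916). It had 49.0, 49.6 and 44.3 FPKM in ARM replicates and 55.4, 47.1 and 49.5 FPKM in normal replicates, again with overlap.

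Auts2l.a, named after the neurodevelopmental gene Auts2, spans 138116 bases of chromosome 12 (28074634 to 28212749) and had 37.7, 41.4 and 54.2 FPKM in ARM replicates and 41.6, 44.2 and 43.0 FPKM in normal replicates. Nfib.b, from the gene of a nuclear factor I protein that acts in glial and neuronal differentiation, spans 57265 bases of chromosome 5 (100439169 to 100496433). It varied more within groups than between them, with 52.2, 32.2 and 53.6 FPKM in ARM replicates and 30.3, 53.6 and 34.7 FPKM in normal replicates. Atrnl1.a, named after the host with 1 CG-rich promoter and 1 without CG above, spans 396979 bases of chromosome 1 (278701730 to 279098708) in a transcript of 2786 bases. Its levels were 32.5, 31.5 and 32.6 FPKM in ARM replicates and 28.8, 31.6 and 29.2 FPKM in normal replicates. LOC689044.b, blutu.a, Zfand6andFah.d and NONRATT008402.2 completed the 10 most abundant together with A2bp1.b, with means of 40.8, 34.4, 31.2 and 31.0 FPKM, and in all 4 the groups overlapped in TMM-scaled counts.

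**Figure D2:**
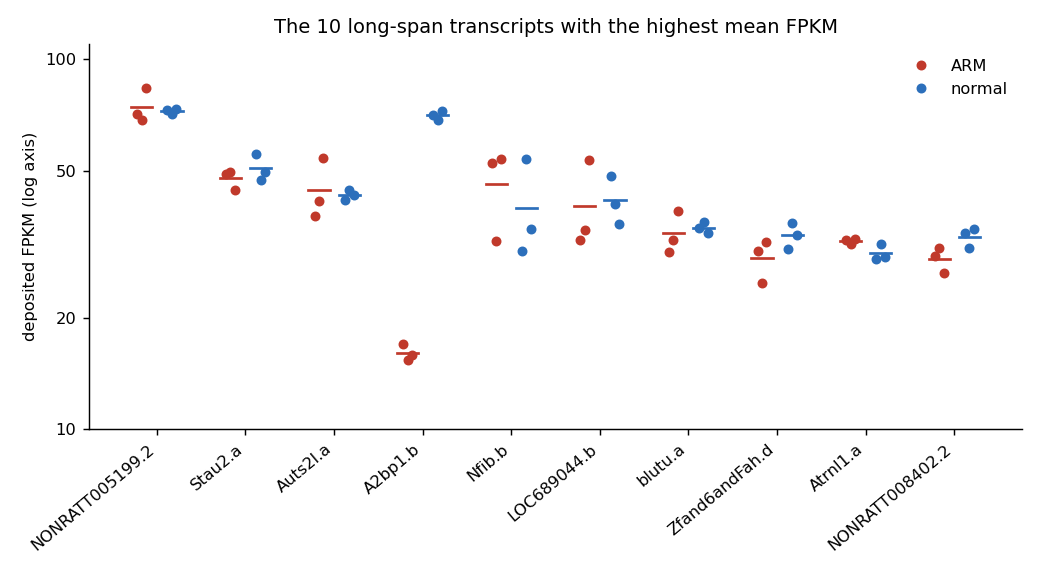
The vertical axis gives deposited FPKM on a log axis for the 10 long-span transcripts with the highest mean; dots are libraries, ARM in red left of normal in blue, and lines are group means. A2bp1.b lies between 15.3 and 17.0 FPKM in ARM cord and between 68.5 and 72.2 FPKM in normal cord, while the group means of the other 9 lie much closer together.

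The longest spans had few counts. The longest of all, meesa.a, covers 1108227 bases of chromosome 18 and had 1, 0 and 0 counts in ARM replicates and 0, 0 and 2 counts in normal replicates. Transposase_22.4.a, named after a transposase domain, spans 1030392 bases and had at most 5 counts in a library, while plovey.a (756632 bases), botor.a (723510 bases) and juglu.a (678918 bases) had at most 2. All 4 of these names end in "-unspliced" in the table. Sgcz.a was the exception among the 6 longest. It is named after zeta-sarcoglycan, a membrane protein of the dystrophin complex, and spans 687522 bases of chromosome 16 (57135852 to 57823373). Sgcz.a had 4.30, 4.24 and 5.86 FPKM in ARM replicates and 7.25, 6.36 and 5.11 FPKM in normal replicates, and its log2 fold change was -0.38 ± 0.16 (SE), with overlapping groups and an edgeR adjusted p of 1.0.

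The comparison of ARM with normal cord asked which of these transcripts differ between fetuses with ETU-induced malformations and normal fetuses. Across the whole table, counts were tested with edgeR's quasi-likelihood test and adjusted after Benjamini and Hochberg over 13584 rows, of which 312 were long-span transcripts (52.3% of the 596). Passing the filter was close to as frequent in the other spliced NONCODE rows (54.7%) and more frequent in NONCODE rows with span equal to length (65.2%). The levels below are in CPM, each row's count scaled to a fixed total of the tested lncRNA counts on TMM-scaled library sizes, which compare 1 transcript between libraries and not transcripts with each other.

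One long-span transcript passed an adjusted p of 0.05, and it was lower in ARM cord. The share of all tested rows that passed in either direction was 0.0515% (7 rows), with 0.0442% lower and 0.00736% higher. The transcript was A2bp1.b (NONRATT005197.2), in the Rbfox1 gene, which encodes a neuronal RNA-binding protein that sets alternative splicing. It is 3167 bases long and spans 58346 bases of chromosome 10 (8312954 to 8371299). A2bp1.b had 374, 329 and 299 CPM in ARM replicates 1 to 3, against 1432, 1387 and 1540 CPM in normal replicates 1 to 3. Every ARM library lay below every normal library. The raw counts were 1393, 1222 and 953 in ARM replicates and 4242, 6158 and 6963 in normal replicates, so the difference does not rest on scarce reads. A2bp1.b averaged 334 ± 37.7 CPM in ARM cord and 1453 ± 78.8 CPM in normal cord (SD, n = 3 each), and the log2 fold change was -2.12 ± 0.11 (SE, edgeR adjusted p = 0.00194). With the replicate number added as a block, A2bp1.b was at -2.13 and was not called (edgeR adjusted p = 0.147).

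**Figure D3:**
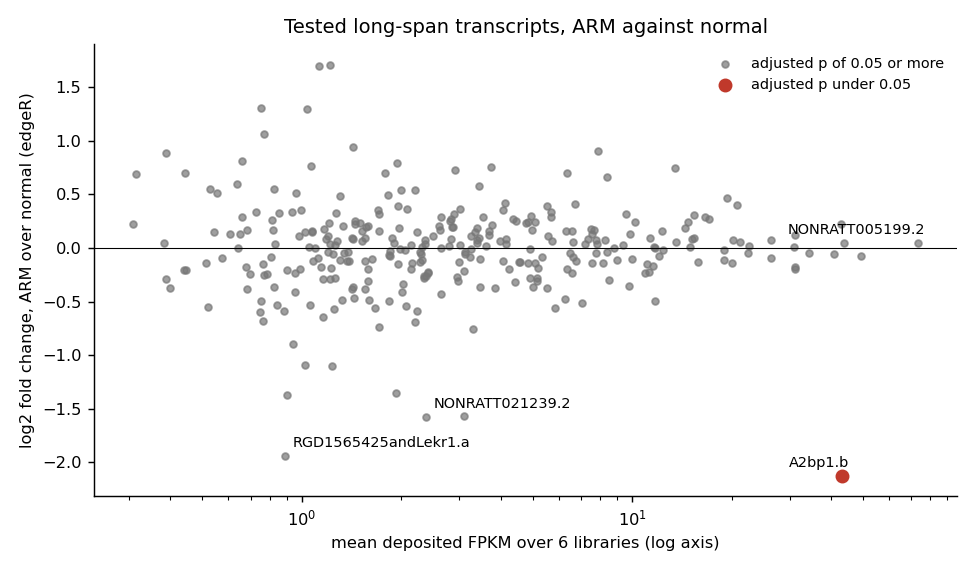
The horizontal axis gives the mean deposited FPKM over the 6 libraries on a log axis and the vertical axis the log2 fold change of ARM over normal from edgeR, for the 312 tested long-span transcripts. A2bp1.b, in red at -2.12, is the 1 transcript under an adjusted p of 0.05 and lies alone among the abundant ones, while the scatter of the others widens toward low FPKM.

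No other row in the region was called. The row nymey.a, 771 bases that lie inside the span of A2bp1.b, had a log2 fold change of 0.22 ± 0.31 (SE). NONRATT005199.2, the most abundant long-span transcript, begins 178.6 kb from the lower end of A2bp1.b, and its 401, 376 and 403 CPM in ARM replicates overlapped the 377, 368 and 400 CPM of normal replicates (log2 fold change 0.04 ± 0.09). A2bp1.e, a 472-base row inside that span and the other row of the table named after A2bp1, had a log2 fold change of 0.01 ± 0.19. All 3 had overlapping groups and an edgeR adjusted p of 1.0. The rows nymey.a and A2bp1.e were named here after their values were seen. Whether these rows differ from A2bp1.b in their response was not tested as such.

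**Figure D4:**
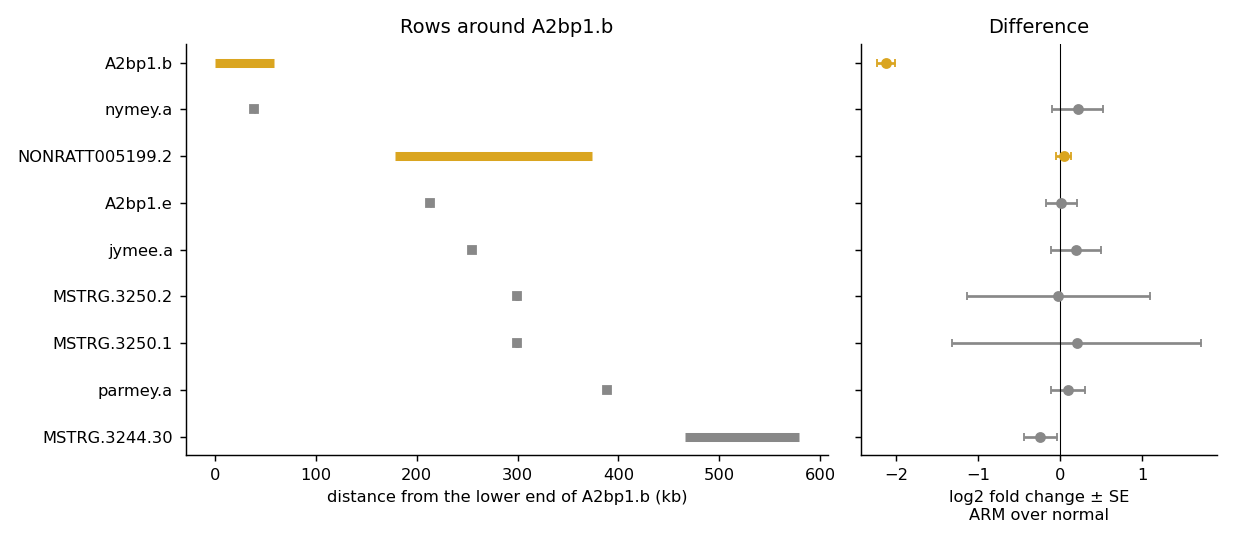
Left, the extent of each row around A2bp1.b, as distance in kb from its lower end, with long-span transcripts in gold, other rows in grey and rows under 5 kb as squares; right, the log2 fold change of ARM over normal with its SE from edgeR. A2bp1.b lies at -2.12, and the point estimates of the other rows lie between -0.24 and 0.22. The widest SE bars are those of MSTRG.3250.1 (0.20 ± 1.52) and MSTRG.3250.2 (-0.02 ± 1.11), named after their values were seen.

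As a whole, the tested long-span transcripts centred close to 0. Their median log2 fold change was 0.01, with 162 above 0 and 150 below, and that of all tested rows was 0.004. The quartiles ran from -0.19 to 0.20, against -0.14 to 0.15 over all tested rows. An absolute log2 fold change above 1 was found in 13 (4.17%), against 2.71% of all tested rows. Among the 93 with a mean of 5 FPKM or more, 86 had an absolute log2 fold change under 0.5. The median biological coefficient of variation that edgeR estimated, the spread between libraries beyond counting error, was 0.227 in these transcripts and 0.222 in all tested rows.

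Without adjustment, 16 long-span transcripts (5.13%), A2bp1.b included, had an unadjusted edgeR p under 0.05, against 3.0% of all tested rows. Of these 8 (2.56%) were higher in ARM cord, against 1.61% of all tested rows, and 8 (2.56%) lower, against 1.38%. Groups that did not overlap in CPM were found in 35 (11.2%), against 7.78% of all tested rows. In 22 (7.05%) every ARM library lay above every normal one, against 3.87%, and in 13 (4.17%) below, against 3.91%. The members were chosen with results of these data known, and neither share was tested against the rest.

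The 5 with the smallest p on the higher side had edgeR adjusted p of 1.0. LOC681578.h had 3.49, 3.50 and 5.01 CPM in ARM replicates and 1.35, 1.8 and 1.55 CPM in normal replicates, with no overlap, on at most 16 counts a library (log2 fold change 1.31 ± 0.30). LOC681578.e, named here after its values were seen, shares the upper end of that span and had a log2 fold change of -0.43 ± 0.53. With the rows of a name summed before the test, LOC681578 came to -0.08 (edgeR adjusted p = 1.0). Rbm16.b, named after the older symbol of Scaf8, whose protein binds RNA polymerase II and RNA, had 88.2, 215 and 203 CPM in ARM replicates and 89.1, 86.9 and 94.5 CPM in normal replicates. The first ARM library stood with the normal ones, and the log2 fold change was 0.91 ± 0.32. NONRATT003277.2 (0.95 ± 0.31), RGD1562095_predicted.b (0.70 ± 0.24) and vasa.a (0.72 ± 0.27) completed the 5, each with groups that did not overlap and at most 30 counts in a library. LOC681578.h had 4, 8 and 7 counts in normal replicates and NONRATT003277.2 had 8, 10 and 10. Both passed the filter on low counts through their ARM libraries alone. Their place on the higher side and their lack of overlap were thus partly fixed by the filter. RGD1562095_predicted.c, named here after its values were seen, lies inside the span of RGD1562095_predicted.b and had a log2 fold change of 0.65. With the rows of the name summed, RGD1562095_predicted came to 0.66, and neither was called.

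On the lower side, the transcript next after A2bp1.b was RGD1565425andLekr1.a, named after 2 neighbouring genes of which Lekr1 has a RefSeq entry. It had 2.95, 5.66 and 2.19 CPM in ARM replicates and 15.2, 14.9 and 12.2 CPM in normal replicates, a log2 fold change of -1.94 ± 0.34. The groups did not overlap, but the edgeR adjusted p was 0.952, against 0.0257 in DESeq2. With the rows of the name summed, RGD1565425andLekr1 came to -1.52 (edgeR adjusted p = 0.488). NONRATT021239.2, on chromosome 4 (34674288 to 34780139), behaved alike, with 6.71, 7.27 and 6.27 CPM in ARM replicates and 29.0, 15.8 and 16.4 CPM in normal replicates. Its log2 fold change was -1.58 ± 0.29, with an edgeR adjusted p of 0.997 and a DESeq2 adjusted p of 0.0277. The call on both thus depends on the test.

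Ptn.e and Foxp1.d followed, both with groups that did not overlap and an edgeR adjusted p of 1.0. Ptn encodes pleiotrophin, a heparin-binding growth factor of the developing nervous system. Ptn.e had 5.63, 2.15 and 5.33 CPM in ARM replicates and 10.1, 14.4 and 8.85 CPM in normal replicates (log2 fold change -1.35 ± 0.39). NONRATT021333.2, named here after its values were seen, covers the whole span of Ptn.e and had 121, 80.3 and 101 CPM in ARM replicates and 39.2, 98.4 and 42.2 CPM in normal replicates. Its log2 fold change was 0.74 ± 0.38, opposite in sign, with overlapping groups. Foxp1 encodes a forkhead transcription factor that sets motor neuron columns in the spinal cord of mouse and chick. Foxp1.d, spanning 261087 bases of chromosome 4 (131439635 to 131700721), had 3.49, 2.42 and 4.07 CPM in ARM replicates and 4.73, 7.43 and 8.85 CPM in normal replicates (log2 fold change -1.09 ± 0.33), while with the rows of the name summed Foxp1 came to -0.01. The overlapping Foxp1.c, also named after its values were seen, had a log2 fold change of 0.39. In all, 370 of the 596 overlapped another row of the table, and how the authors' counting split reads between overlapping rows is not stated.

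One further transcript was below the filter on low counts and was called under 1 alternative. LOC691031.b, named here after its values were seen, spans 65304 bases of chromosome 10 (40057202 to 40122505) and had 29, 36 and 3 counts in ARM replicates, against 2, 3 and 4 counts in normal replicates. ARM replicate 3 stood with the normal libraries. It was called higher in ARM cord, with an edgeR adjusted p of 0.0438, where that library was left out. Leaving it out removed the ARM library that was low, and the row then passed the filter through the remaining ARM libraries alone. That call therefore cannot serve as support for a difference. With all libraries and no filter it was not called by edgeR (log2 fold change 2.98 ± 0.85, adjusted p = 1.0) nor by DESeq2 (3.04 ± 0.95, adjusted p = 0.391).

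By host gene, 10 transcripts were named after RNA-binding and splicing regulators and 8 of them were tested. A2bp1.b, known when the lists were chosen, fell, and the other 7 were not called, beside 0.0515% called of all tested rows. Of the 8, 6 had a log2 fold change above 0 and 2 below, with a median of 0.07. Eif4g3.k, named after a scaffold of translation initiation, had 34.1, 26.9 and 32.9 CPM in ARM replicates and 27.0, 24.1 and 36.5 CPM in normal replicates (log2 fold change 0.10 ± 0.20). Elavl2.c, named after a neuronal RNA-binding protein that stabilizes mRNAs, had 27.6, 27.5 and 30.1 CPM in ARM replicates and 27.0, 20.9 and 20.4 CPM in normal replicates. The groups of Elavl2.c just failed to overlap, at a log2 fold change of 0.32 ± 0.16 and an edgeR adjusted p of 1.0.

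Transcripts of transcription factors and chromatin regulators numbered 10, with 7 tested and 0 called, beside 0.0515% called of all tested rows. Their median log2 fold change was 0.05. Beside Auts2l.a (0.05 ± 0.11) and Nfib.b (0.22 ± 0.26), Runx1t1.b, from the gene of a transcriptional corepressor, had 12.3, 10.8 and 18.2 CPM in ARM replicates and 17.6, 18.7 and 9.29 CPM in normal replicates, a log2 fold change of -0.14 ± 0.33. Cell adhesion genes gave 4 transcripts, all tested and none called, beside the same 0.0515%. At that share, lists this small would be likely to hold no call. Nrcam.f, from the gene of an adhesion molecule at nodes of Ranvier, had 23.1, 24.8 and 24.8 CPM in ARM replicates and 20.3, 21.4 and 21.9 CPM in normal replicates. Its groups did not overlap, but the log2 fold change was 0.19 ± 0.13. Lphn3.b, named after the older symbol of the latrophilin gene Adgrl3, had 40.2, 42.6 and 38.9 CPM in ARM replicates and 56.7, 44.4 and 48.7 CPM in normal replicates, with no overlap and a log2 fold change of -0.30 ± 0.14. Pcdh9.a, from a protocadherin gene, had overlapping groups and a log2 fold change of -0.51 ± 0.25. All of these had an edgeR adjusted p of 1.0.

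Other lists of neural interest were hardly present. Elmo1.e, named after a gene that acts with DOCK proteins in cell movement, was the single transcript of the axon guidance list, with 5.10, 5.92 and 4.70 CPM in ARM replicates, 7.09, 3.60 and 5.75 CPM in normal replicates and a log2 fold change of -0.04 ± 0.30. The list of ion channels and neurotransmitter receptors had 2 transcripts and that of large genes at common fragile sites 3, none with counts high enough to be tested. No long-span transcript was named after a lncRNA of the list of well known lncRNAs.

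The host names were sorted into 5 further groups after they were seen. In these groups edgeR called no transcript, beside 0.0515% called of all tested rows. Each transcript named from them was also chosen after its values were seen. Cytoskeleton and membrane scaffold genes gave 16 transcripts, 11 of them tested, with a median log2 fold change of -0.01. Their most abundant was Ank3.q, in the gene of ankyrin-G, which organizes the axon initial segment, with 211, 213 and 248 CPM in ARM replicates and 223, 221 and 225 CPM in normal replicates. Other transcription and chromatin genes gave 25, 21 of them tested, with a median of 0.01. Among these Myt1l.d, in the gene of a neuronal zinc finger factor, spans 207234 bases and had 25.2, 34.2 and 31.0 CPM in ARM replicates and 43.9, 38.3 and 44.9 CPM in normal replicates. Its groups did not overlap, with a log2 fold change of -0.49 ± 0.16 and an edgeR adjusted p of 1.0.

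Synaptic and neuronal signalling genes gave 17 transcripts, 13 of them tested, with a median of 0.04, and Cplx2.b, in the gene of a complexin that acts in vesicle release, had 33.8, 30.4 and 25.7 CPM in ARM replicates and 31.7, 25.4 and 32.1 CPM in normal replicates. Primary cilium and centrosome genes gave 6, 5 of them tested, with a median of -0.13. Ahi1.b, in a gene of the ciliary transition zone, spans 134895 bases and had 82.1, 90.5 and 76.8 CPM in ARM replicates and 80.0, 72.5 and 87.4 CPM in normal replicates. Ubiquitin and SUMO genes gave 27, 19 of them tested, with a median of 0.11. Trim2.c, in the gene of a ubiquitin ligase of axons, had 41.0, 38.2 and 42.9 CPM in ARM replicates and 21.9, 29.3 and 40.9 CPM in normal replicates, with overlap and a log2 fold change of 0.40 ± 0.23.

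As a class, the long-span transcripts held a little less of the lncRNA counts in ARM cord, and A2bp1.b carried that difference. They held 1.12%, 1.13% and 1.05% of the counts in ARM replicates 1 to 3, against 1.16%, 1.20% and 1.20% in normal replicates 1 to 3. Every ARM library lay below every normal library, and the 95% Wilson interval of each share reached at most 0.0122 percentage points to either side, which covers counting error only. The shares averaged 1.10% ± 0.040 in ARM cord and 1.18% ± 0.020 in normal cord (SD, n = 3 each), a difference of -0.0838 percentage points with p = 0.1 in the exact two-sided permutation test, the smallest p that 3 against 3 libraries allow. A2bp1.b alone held 0.0330% ± 0.0039 in ARM cord, against 0.143% ± 0.0086 in normal cord. Without it the shares were 1.07% ± 0.037 in ARM cord and 1.04% ± 0.020 in normal cord, a difference of the other sign, 0.0266 points (exact permutation p = 0.3). The transcripts spanning 100 kb or more held 0.411% ± 0.0122 in ARM cord and 0.409% ± 0.0096 in normal cord (exact permutation p = 0.8).

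**Figure D5:**
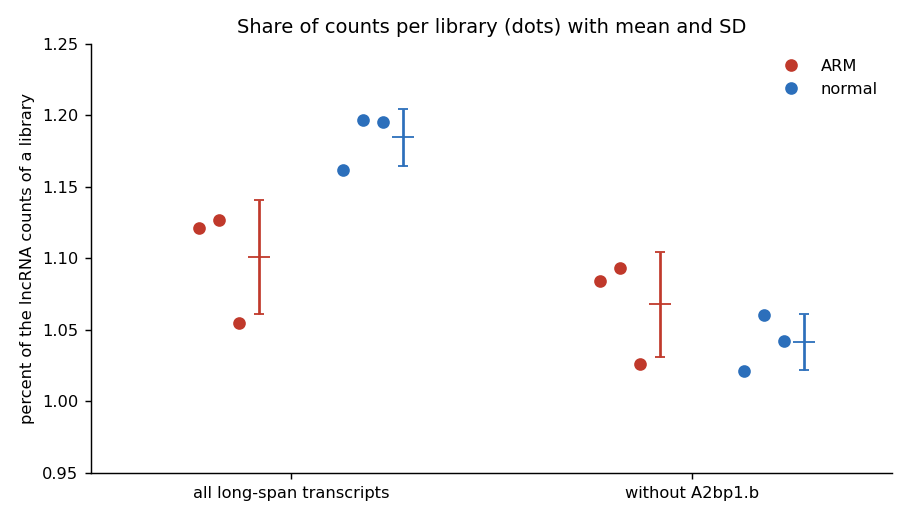
The vertical axis, which does not start at 0, gives the percent of a library's lncRNA counts held by the long-span transcripts, all of them (left) and without A2bp1.b (right); dots are libraries, ARM in red left of normal in blue, with the group mean and SD beside them. The ARM libraries lie below the normal ones with A2bp1.b, at 1.05% to 1.13% against 1.16% to 1.20%, and overlap them without it.

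The 6 lncRNA libraries held 3795224, 3666644 and 3299241 counts in ARM replicates and 3017868, 4508920 and 4549756 counts in normal replicates. Rows named after neural genes summed to 26279 to 30564 CPM in ARM libraries and 27020 to 28360 CPM in normal libraries, on 5 of 9 marker genes with a row. The single row of the blood list was at 212 CPM in ARM replicate 3 and at most 4.29 CPM in the other 5 libraries. A2bp1.b lay at 374 and 329 CPM in the other ARM replicates, and whether blood content bears on its difference was not tested. Rows of the sensory ganglion list summed to 473 to 612 CPM in ARM libraries and 499 to 549 CPM in normal libraries, those of cartilage and meninges to 41.7 to 50.4 and 30.4 to 75.7 CPM, and those of endothelium and microglia to 36.0 to 43.4 and 26.7 to 38.5 CPM. The single muscle row reached 0.627 CPM in an ARM library and 0.221 CPM in a normal library. Most defining markers have no row in a lncRNA table, and the part of other cell types in the results was not tested.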

How the data were processed

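Transcripts of 6 lncRNA libraries, 3 from ARM and 3 from normal cord, were analysed. Groups and replicate numbers came from the sample titles. The authors deposited, per the file headers, whole-number read counts and FPKM for each lncRNA row. Each FPKM was the row's count over its length and a total per library. The tools named in the submitters' processing notes are Cuffdiff, Cufflinks 2.1.1, TopHat2 2.0.9 and CASAVA 1.8, beside the build mm10. The table's chromosomes include 20, which the mouse lacks, so the coordinates' build is unsettled. The aligner's settings, counting tool and strand setting are not given in the sources read. Coordinates are printed as deposited.

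Counts were tested with edgeR 4.0.16 in R 4.3.3 (TMM, filterByExpr, glmQLFTest, no covariate), fitted on the whole table with Benjamini-Hochberg adjustment across its tested rows. Fold changes are ARM over normal. CPM used TMM-scaled totals of the tested rows. Shares of counts have Wilson intervals and exact permutation tests. The members and gene lists were chosen with earlier results of these data known. Named transcripts were those called, the 5 with the smallest p in each direction, the 10 with the highest mean FPKM, the 6 with the largest span, up to 3 tested transcripts of each of 7 gene lists, the 5 names with most rows (6 with a tie) and the neighbours of the span limit. All others are said to be chosen after their values were seen. Names were matched to RefSeq symbols and synonyms of the GRCr8 annotation. The code was tested on simulated data. There the edgeR test called 6.38% of the 2-fold changes and 61.5% of the 4-fold changes put in. A row that was not called is therefore not shown to be unchanged. Replicate pairs of a group differed by far more than sampling noise, at 14.4 to 24.6 chi-square units per degree of freedom. Alternatives were RLE size factors, implied library totals, DESeq2 1.42.0, no filter, a replicate block, leaving out each library, a threshold of 0.1, rows summed by name, a span limit of 100 kb, and, added after the data were seen, leaving out A2bp1.b or the rows named unspliced. The miRNA table was not used here.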

Additional observations from a re-analysis of the deposited data

How the results depend on the processing

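A2bp1.b was called lower in ARM cord under every edgeR alternative but the replicate block, with adjusted p between 2.18e-04 and 0.0188, and by DESeq2. DESeq2, which tests every row, called 3 long-span transcripts, all 3 lower, and 32 transcripts in the table. With the replicate number as a block 0 long-span transcripts were called, 0 lower, and 2 in the table, and A2bp1.b had a log2 fold change of -2.13 with an adjusted p of 0.147. The labels name no batch. Same-numbered libraries correlated at -0.0005, 0.029 and -0.060 in their deviations from the group means. No ARM library correlated best with the normal library of its own number. Of the normal libraries, replicate 2 alone correlated best with the ARM library of its own number. Whether libraries of the same number shared a batch was not tested. With all 6 libraries no long-span transcript was called higher by edgeR, with 8 at an unadjusted p under 0.05, nor by DESeq2. With a limit of 100 kb 0 were called, 0 of them lower, since A2bp1.b spans less, and the difference in the share of counts was 0.00122 points. Without A2bp1.b it was 0.0266 points. Leaving out 1 library gave 1 to 2 called long-span transcripts, 0 to 1 higher, 10 to 18 called transcripts in the table, a median log2 fold change of -0.0088 to 0.0169, and a share difference of -0.0968 to -0.0607 points. The table's count was 15, 17 and 18 without ARM replicates 1, 2 and 3 and 18, 11 and 10 without normal replicates 1, 2 and 3, against 7 with all, and the cause was not tested. The second long-span call, LOC691031.b, appeared without ARM replicate 3, where the row passed the filter through the remaining ARM libraries alone. Of 364 alternative values of 28 named transcripts, 14 in 8 transcripts had the opposite sign, none of them called. The other alternatives kept the 1 call and its direction. Depth bears on scarce transcripts most, and 328 of the 596 had a mean under 1 FPKM.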

Other observations

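Arpp21.a, in a gene for a neuronal phosphoprotein and chosen after its values were seen, split the libraries across both groups. It had 25.2, 104 and 98.7 CPM in ARM replicates 1 to 3 and 25, 102 and 86.3 CPM in normal replicates 1 to 3, so replicate 1 was low in each group. Its log2 fold change was 0.09 ± 0.65 (SE). Samd12.a, which spans 506822 bases of chromosome 7 and was also chosen after its values were seen, was the most abundant transcript of 500 kb or more, with 44.0, 66.3 and 36.0 CPM in ARM replicates and 38.5, 46.2 and 53.8 CPM in normal replicates, and overlapping groups.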
